A study of Mus musculus with 4 samples.

Results

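Keratins and epithelial junction genes were followed in tumor cells and immune cells of DLA tumors. The 10 genes were Krt7, Krt8, Krt18, Krt19, Epcam, Cdh1, Cldn4, Wfdc2, Sfn and Cnfn, chosen by symbol from the 32285 genes of the deposited matrices after their levels in these data were known, so their high level in the tumor cells is a description and was not tested. All 10 symbols were found, each in 1 row. DLA (Dalton's Lymphoma Ascites) is a transplantable mouse tumor line, labelled as a lymphoma, that was injected into the peritoneum of Swiss albino mice. Droplet single-cell RNA sequencing was done on 2 control libraries (Control 1 and Control 2) and on 2 libraries from mice given SP11, an inhibitor of the chaperone HSP90, by mouth for 17 days (30 mg/kg, Treated 1 and Treated 2). The labels call the control mice untreated and the supplement of the study calls them vehicle controls, so whether they received vehicle is not settled. All 4 libraries carried the same transplanted line, and the host's own cells remained in the digested tissue. The labels do not say whether a library is 1 animal or a pool, and p-values between groups measure the spread between these libraries only.

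Keratins are the intermediate filament proteins of epithelial cells. A filament is built from pairs of a type I keratin (Krt18, Krt19) and a type II keratin (Krt7, Krt8), and Krt8 with Krt18 is the pair of simple epithelia such as liver, gut and gland ducts. Epithelial cells are joined by E-cadherin (Cdh1) at adherens junctions and by claudins (Cldn4) at tight junctions, and they carry the surface adhesion molecule Epcam. Wfdc2 encodes a secreted protein of glandular epithelia, Sfn encodes 14-3-3 sigma, a binding protein of stratified epithelia, and Cnfn encodes cornifelin, a protein of the cornified envelope of skin. Cells of a T cell or B cell lymphoma normally carry Ptprc (CD45) and lymphoid surface genes in place of this program.

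The 3 keratin genes of chromosome 15 lie in the mouse keratin cluster (GENCODE M21, mm10). Krt8 is at chr15:101996698-102004482 on the minus strand and Krt18 at chr15:102028180-102032027 on the plus strand, head to head with 23697 bases and 0 protein-coding genes between them. Krt7 is at chr15:101411043-101430313, 566384 bases from Krt8, with 22 other keratin genes between them. Krt19 is at chr11:100140810-100148665. The sequence before the RefSeq start site (GRCm38.p6) is shown for the 3 linked keratins, which varied together from cell to cell. It is also shown for Epcam at chr17:87635979-87651129, whose r with them was low but rested on low counts and is not a finding. Each run is printed 5′ to 3′ on the gene's strand and stops at the first annotated untranslated base, and capitals mark a match to a GC box (GGGCGG or its reverse complement CCGCCC):
Krt8, chr15:102004483-102004592, minus strand: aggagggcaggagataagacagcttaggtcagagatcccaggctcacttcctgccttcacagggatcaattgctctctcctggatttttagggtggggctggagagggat
Krt18, chr15:102027966-102028179, plus strand: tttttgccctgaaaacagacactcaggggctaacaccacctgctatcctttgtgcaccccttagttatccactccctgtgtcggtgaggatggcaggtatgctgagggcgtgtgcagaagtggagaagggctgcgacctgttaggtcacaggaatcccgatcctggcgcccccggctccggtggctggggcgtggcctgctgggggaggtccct
Krt7, chr15:101412153-101412401, plus strand: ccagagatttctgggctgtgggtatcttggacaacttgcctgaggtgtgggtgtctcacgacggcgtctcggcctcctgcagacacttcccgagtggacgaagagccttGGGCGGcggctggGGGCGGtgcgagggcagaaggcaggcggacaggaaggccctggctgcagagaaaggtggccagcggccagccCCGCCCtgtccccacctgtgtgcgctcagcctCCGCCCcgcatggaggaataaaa
Epcam, chr17:87635729-87635978, plus strand: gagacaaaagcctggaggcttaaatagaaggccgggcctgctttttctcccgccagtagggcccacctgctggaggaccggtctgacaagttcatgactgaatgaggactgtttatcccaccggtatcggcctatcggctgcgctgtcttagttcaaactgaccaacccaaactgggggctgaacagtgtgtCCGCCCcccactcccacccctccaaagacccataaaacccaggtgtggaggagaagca
Of the 10 genes, 8 had a promoter entry, and Krt19 and Cdh1 had none. Krt19, on another chromosome, also varied with the 3 linked keratins. Its mean r with Krt8 was 0.274, against 0.310 for Krt7 with Krt8. In windows of 250 bases before the RefSeq start site, a GC box stood 4 times for Krt7 and 1 time for Epcam, and 0 times for Krt8 and Krt18. Over all 32851 promoters, 32.7% held one. The Krt7 window lies inside the gene span that GENCODE gives, after its start at chr15:101411043. A CCAAT motif (either strand), held by 33.8% of all promoters, and a TATAAA motif (either strand), held by 12.4%, were in none of these 4 windows. The AP-1 motif TGANTCA (6.75% of all promoters) was matched 2 times before Cldn4, and the grainyhead motif AACCNGTT or its reverse complement (1.79%) 1 time before Sfn. These are matches of letters and were not tested as binding sites.

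Cells with 200 or more genes found and no more than 10% of UMIs on mitochondrial genes were kept, which left 916 and 566 control cells and 1831 and 1091 treated cells. UMIs (unique molecular identifiers) count captured molecules, and the libraries held 9827816 and 9646197 UMIs in control and 13406925 and 13632163 in treated samples. Tumor cells, gated by at least 3 Krt18 UMIs, numbered 843 and 532 in control and 1244 and 582 in treated samples, 3201 of 4404 kept cells in all. Their median depth ranged from 8934 to 19843 UMIs. B, T, myeloid and neutrophil cells, gated by UMIs of their own markers, were few in controls (30 and 5 cells) and more in treated samples (338 and 353 cells). Because Krt18 defines this gate, a second gate without any of the 10 genes took cells with at least 2000 UMIs that passed no immune or erythroid limit. It held 3238 cells, of which 97.3% were also in the Krt18 gate. Cell barcodes recurred between libraries in 60 to 359 cases per pair, and 1153 of the 3201 tumor cells had such a barcode. The 4353 distinct barcodes held 192 distinct first 8 bases and 192 distinct last 8 bases. How many barcodes would recur by chance was not tested. Profiles of tumor cells with the same barcode in different libraries, as deviations from their library's mean, correlated at a mean r of 0.00299 to 0.00998. Between tumor cells with different barcodes the mean r was -0.000120 to 0.000248, lower in every pair of libraries. The source of this difference was not tested.

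In tumor cells, 8 of the 10 genes were abundant and 2 were at the edge of detection. Levels are UMIs summed over the cells of a gate and scaled to a common total (CPM). A UMI of these 3′ libraries stands for 1 captured molecule whatever the transcript's length, so genes are put side by side without a division by length. Krt18, the type I partner of Krt8, was at 3035 and 1639 CPM in Control 1 and Control 2 and at 2419 and 1967 CPM in Treated 1 and Treated 2. Krt8 was at 1692 and 795 CPM in controls and 1238 and 1264 CPM in treated samples. Both were highest in Control 1 and lowest in Control 2, with the treated samples between them.

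Krt7, a type II keratin of ducts, was at 1800.2 and 1114 CPM in controls and 1489 and 1332 CPM in treated samples. Krt19, the short type I keratin, was at 719 and 395 CPM in controls and 595 and 568 CPM in treated samples. The order of the libraries was thus like that of Krt8 and Krt18. Epcam was nearly level over the libraries, at 227 and 222 CPM in controls and 222 and 194 CPM in treated samples.

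Wfdc2 was the highest of the 10 genes in Control 2 and in both treated samples, at 3034 and 2639 CPM in controls and 3220 and 2738 CPM in treated samples, and was level with Krt18 in Control 1. Cnfn was at 1381 and 1168 CPM in controls and 1419 and 1041 CPM in treated samples. Sfn was at 239 and 230 CPM in controls and 297 and 233 CPM in treated samples. For these 3 genes of glands and stratified epithelia the values of the groups overlapped.

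The junction genes among the 10 stood apart from the keratins. Cldn4 was at 3.53 and 1.37 CPM in controls and 2.29 and 2.72 CPM in treated samples. Cdh1 was at 0.623 and 0.423 CPM in controls and 0.653 and 0.165 CPM in treated samples, from 6, 4, 8 and 2 UMIs. In tumor cells E-cadherin transcripts were thus near the floor of 3 counts, which is 0.311 CPM in Control 1.

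**Figure D1:**
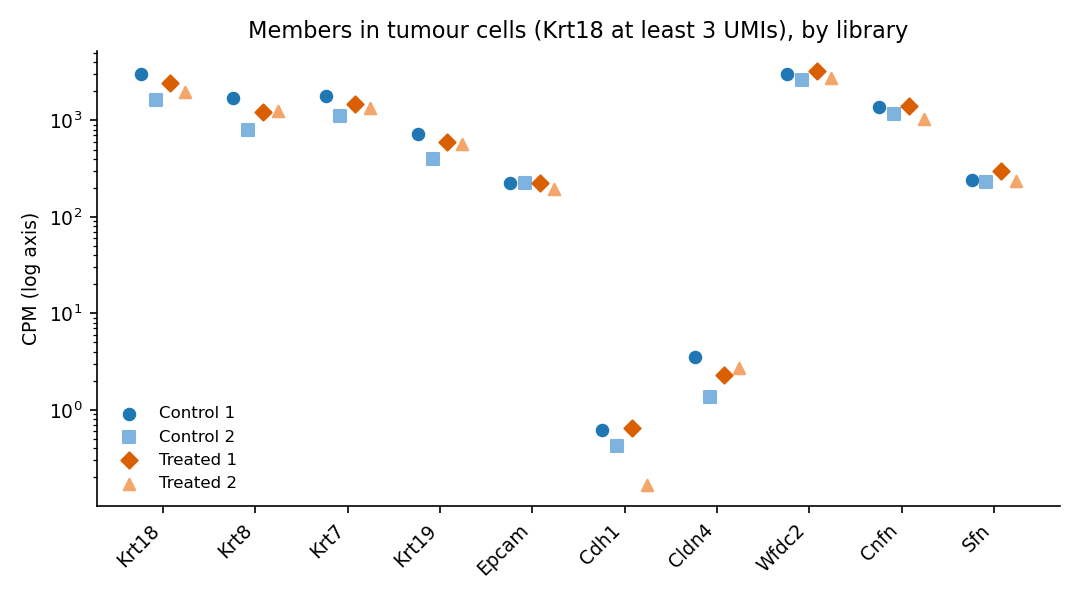
Level of each of the 10 genes in Krt18-gated tumor cells of the 4 libraries, as CPM on a log axis. Each point is 1 library, and the 4 keratins, Wfdc2, Cnfn, Sfn and Epcam sit at 194 CPM or above while Cdh1 and Cldn4 sit at 3.53 CPM or below.

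By the mean over libraries the keratins were ordered Krt18 (2337 ± 987 in controls and 2193 ± 320 CPM in treated samples, SD, n = 2 each), Krt7 (1457 ± 485 and 1411 ± 111), Krt8 (1243 ± 634 and 1251 ± 18.6) and Krt19 (557 ± 229 and 581 ± 19.1). The neighbours Krt7 and Krt8 lay within their spread of each other in controls but not in treated samples, and Krt7 was above Krt8 in 4 of 4 libraries. Cnfn (1275 ± 151 and 1230.1 ± 268 CPM) and Krt8 lay within their spread in both groups. Epcam and Sfn, at 225 ± 3.31 and 235 ± 6.36 CPM in controls, formed a lower step, and Cldn4 and Cdh1 the lowest.

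The controls differed from each other more in the keratins than in the other 4 abundant genes. From Control 2 to Control 1 the level was 2.13 times as high for Krt8, 1.85 times for Krt18, 1.82 times for Krt19 and 1.62 times for Krt7. The ratio was 1.18 for Cnfn, 1.15 for Wfdc2, 1.04 for Sfn and 1.02 for Epcam. The 2 low genes gave 2.57 for Cldn4, from 34 and 13 UMIs, and 1.47 for Cdh1, from 6 and 4 UMIs. Among 6283 genes at 10 CPM or more in every library, the ratio of Krt7 exceeded that of 99.87% of the genes and the ratio of Krt8 that of 99.98%, with Krt18 and Krt19 between them. Between the treated samples the keratin ratios were smaller, from 0.979 for Krt8 to 1.23 for Krt18. These ratios compare single libraries and have no replicate error, and the gate that used none of the 10 genes gave 2.14 for Krt8 and 1.86 for Krt18.

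The 4 keratins were found together in single cells. Each tumor cell of the member-free gate with at least 5000 UMIs was thinned to 5000 UMIs, which left 798 and 515 control cells and 1137 and 574 treated cells and left out 46 and 28, and 106 and 34. All 4 keratins were found in 94.4% and 73.4% of these cells in controls and in 89.4% and 88.9% in treated samples, lowest in Control 2. A cell with none of the 4 was seen 1 time, in Treated 2.

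**Figure D2:**
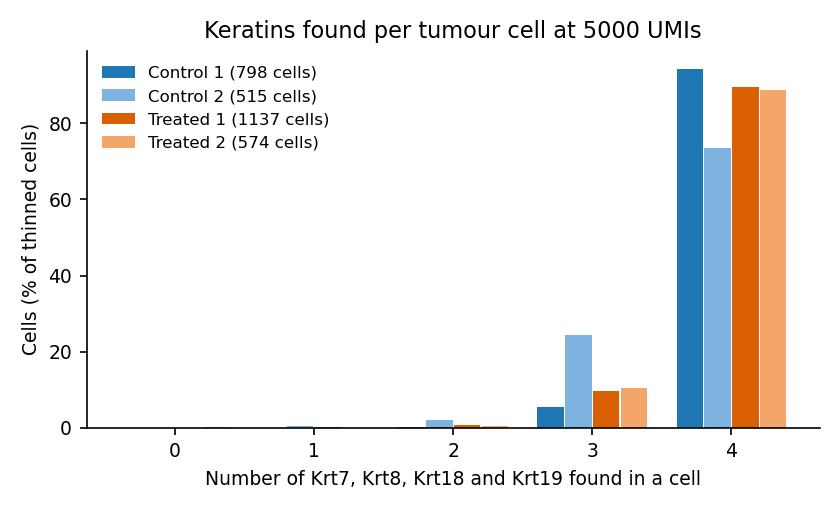
Share of tumor cells, in percent of cells thinned to 5000 UMIs, by how many of Krt7, Krt8, Krt18 and Krt19 had a UMI, with 1 bar per library. Cells with all 4 make up 73.4% to 94.4% of a library, and Control 2 has the most cells with 3.

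After thinning, a Krt18 UMI was seen in 100% and 99.2% of control cells and 99.9% and 99.8% of treated cells, and a Krt8 UMI in 99.9% and 92.6%, and 97.4% and 98.1%. Krt19 was seen least often in Control 2, in 80.8% of cells (95% Clopper-Pearson exact interval from 77.1 to 84.1), and most often in Control 1, in 94.5% (from 92.7 to 96.0). Epcam was seen in 65.2% and 60.6%, and 63.1% and 59.8%, and Sfn in 66.2% and 63.7%, and 72.3% and 65.7%, shares that go with a mean of about 1 UMI per thinned cell (0.986 to 1.15 for Epcam). Intervals cover counting error only. Without thinning the shares were higher, 80.2% to 89.8% for Epcam and 86.4% to 91.0% for Sfn.

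Cldn4 and Cdh1 were rare cell by cell as well. Cldn4 was found in 1.88%, 0.777%, 1.32% and 1.39% of thinned cells. Cdh1 was found in 3 of 798, 1 of 515 and 3 of 1137 cells, and in 0 of 574 cells of Treated 2, where the exact interval reaches 0.641%. Shares of 1 gene, Wfdc2, did not overlap between the groups (99.9% and 99.6% in controls, 100% and 100% in treated samples), against 44.3% of 10210 genes found in at least 1% of cells. The exact two-sided permutation test of 2 against 2 samples gave p = 0.33 for Wfdc2, the smallest it can give.

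Immune cells carried few UMIs of the 10 genes. Summed over the 10 genes, the pooled immune gates held 1667 and 1410 CPM in controls, from 61 and 17 UMIs, and 1098 and 738 CPM in treated samples, from 389 and 405 UMIs. This was 13.7% and 17.2% of the tumor level in controls and 10.1% and 7.90% in treated samples. The rule kept cells with 3 or more Krt18 UMIs out of the immune gates, which bounds the Krt18 value from above.

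A Krt18 UMI was present in 20.1% (15.97 to 24.8) of immune cells of Treated 1 and 23.2% (18.9 to 28.0) of Treated 2. The immune cells were shallow, with median depths of 872 and 1582 UMIs in B cells and 993 and 1859 in myeloid cells, against 8934 and 19843 in tumor cells of the same libraries. Krt18 was at 223 (Poisson interval 177 to 278) and 169 (137 to 208) CPM there, and Wfdc2 at 327 (271 to 393) and 219 (181 to 261) CPM. Epcam was at 19.8 and 12.8 CPM, from 7 UMIs each.

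The shares of the 10 genes among their summed UMIs were set side by side in tumor and immune cells, with no test of the difference. In Treated 1 Wfdc2 took 29.5% in tumor cells and 29.8% in immune cells, Krt18 22.2% and 20.3%, Krt7 13.7% and 14.4%, Cnfn 13.0% and 12.6%, Krt8 11.4% and 11.8%, Krt19 5.46% and 4.88%, Sfn 2.72% and 3.86%, and Epcam 2.04% and 1.80%. In Treated 2 Wfdc2 took 29.3% and 29.6%, Krt18 21.1% and 23.0%, Krt7 14.3% and 13.6%, Krt8 13.5% and 13.3%, Cnfn 11.1% and 9.63%, Krt19 6.08% and 6.91%, Sfn 2.50% and 1.98%, and Epcam 2.08% and 1.73%. Cdh1 and Cldn4 rested on 0 or 1 UMI in the immune cells of each library, and 1 UMI was 0.257% in Treated 1, above their tumor shares. Whether free RNA of tumor cells gave these UMIs was not tested. In the controls the 30 and 5 immune cells held too few UMIs for such a comparison, at most 16 of any gene in Control 1 and 8 in Control 2.

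**Figure D3:**
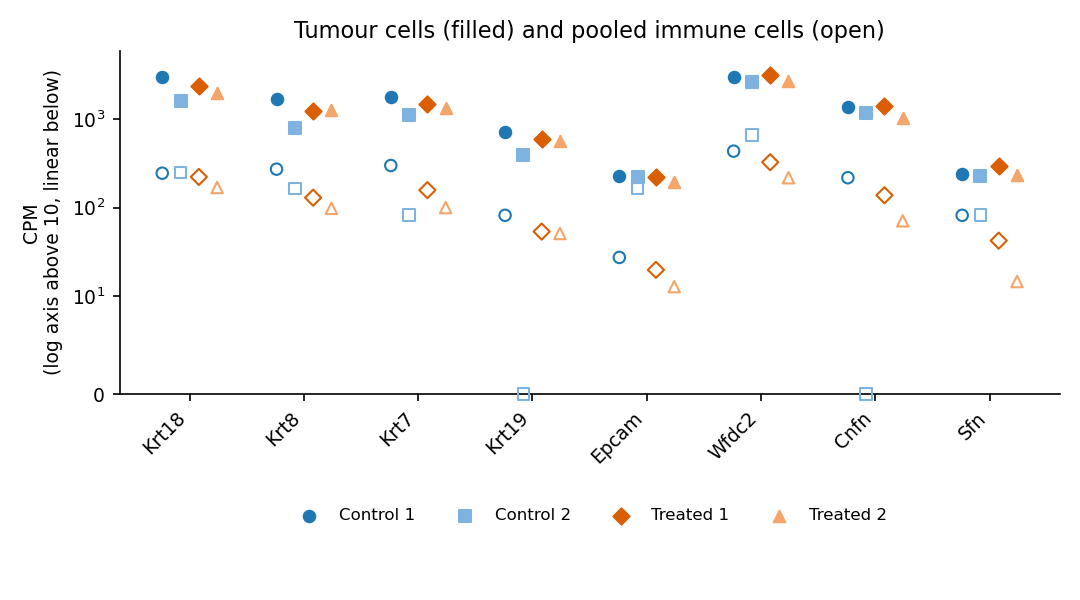
Level of 8 of the 10 genes in tumor cells (filled) and in the pooled B, T, myeloid and neutrophil gates (open) of each library, as CPM on an axis that is logarithmic above 10 and linear below. Every filled point lies above the open point of its library, and Krt19 and Cnfn had 0 UMIs in the 5 immune cells of Control 2.

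Each of the single gates held some UMIs. In Treated 1 and Treated 2 the B cell gate (150 and 140 cells) held 33 and 37 Krt18 UMIs and 52 and 50 Wfdc2 UMIs. Without the limit on Krt18 the 152 B cells of Treated 1 held 61 and 114 UMIs of the 2 genes, and the 141 of Treated 2 held 40 and 50. The myeloid gate (169 and 94 cells) held 43 and 28 Krt18 UMIs and 56 and 30 Wfdc2 UMIs. The T cell gate (13 and 79 cells) held 2 and 20 Krt18 UMIs, and the neutrophil gate (6 and 40 cells) 1 and 8. In the controls single cells set the values, as where the 1 neutrophil gated in Control 2 held 2 Krt8 UMIs, so the gates were not ordered there.

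Cells at the edge of the gate were few and shallow. Cells with exactly 2 Krt18 UMIs, just outside, numbered 11, 8, 39 and 15 with median depths of 1063 to 3612 UMIs. Cells with exactly 3, just inside, numbered 5, 8, 21 and 4 with median depths of 1612 to 4295 UMIs, deeper than those outside in 3 libraries and shallower in Control 2. The median tumor cell held 20 to 37 Krt18 UMIs, so few cells lay near the limit. In the member-free gate 36 of 3238 cells had 0 Krt18 UMIs, 26 of them in Treated 2. Those 26 cells held 39544 CPM of the 8 B cell check markers and 225 CPM of Ptprc, against 147 and 5.11 CPM in tumor cells of that library.

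Other epithelial genes were taken from lists of structural and regulatory genes. Of 23 other keratins, 12 had 0 UMIs in the tumor cells of every library and 21 stayed below 1 CPM. The exceptions were Krt10 (5.19 and 8.03 CPM in controls, 6.29 and 5.77 CPM in treated samples) and Krt80 (6.33 and 6.02, and 4.82 and 5.36 CPM), with Krt42 next at 0.330 CPM or below, and the sum over the 23 was 11.7 to 14.6 CPM against 3942 to 7245 CPM for the 4 keratins. The basal keratins Krt5 and Krt14 were at 0.106 CPM or below. Of the cornified envelope list, apart from Cnfn, 14 of 15 genes were below 1 CPM in every library, and Sbsn (suprabasin) was at 2.43 to 4.57 CPM. Sprr1a and Tgm1 (transglutaminase 1) followed at 0.577 and 0.317 CPM at most.

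Some genes of the junction lists were present and others were at or near 0. Of 23 tight junction genes, 5 were at 10 CPM or more in every library and 14 below 1 CPM. Tjp1, the scaffold ZO-1, was at 102 to 114 CPM, the polarity gene Pard6b at 30.0 to 36.1 CPM and F11r, the adhesion molecule JAM-A, at 25.4 to 37.3 CPM. Cldn3 and Cldn7 had 0 UMIs, and Ocln (occludin) was at 0.211 to 0.742 CPM. Of 22 adherens junction and desmosome genes, 9 were at 10 CPM or more, led by Afdn (afadin, 177 to 200 CPM), Ctnna1 (alpha-catenin, 48.6 to 65.4 CPM) and Dsp (desmoplakin, 44.7 to 64.5 CPM). N-cadherin (Cdh2) and P-cadherin (Cdh3) were at 0.317 CPM or below, and Cdh1 at 0.165 to 0.653 CPM.

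Of 30 epithelial regulators and surface genes, 6 were at 10 CPM or more in every library. Cd9, a tetraspanin, was at 201 to 261 CPM, the integrin Itga6 at 85.0 to 108 CPM and the transcription factor Klf5 at 68.4 to 95.6 CPM. The splicing regulator Esrp1 was at 0.208 to 0.735 CPM. In the mesenchymal list Vim (vimentin) was at 111 to 144 CPM, Sparc at 56.7 to 80.5 CPM and Twist1, a transcription factor, at 40.8 to 49.1 CPM, so genes of both kinds were found in the gate.

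The lymphoid label was set against lymphoid and haematopoietic genes. Ptprc was at 0.519 and 0.317 CPM in tumor cells of controls and at 7.84 and 5.11 CPM in those of treated samples. The 25 genes of the list summed to 52.1 and 61.3 CPM in controls and 177 and 120.2 CPM in treated samples, and 2 of them were at 10 CPM or more in every library. The highest were Cd37 (17.2 to 22.5 CPM), Coro1a (13.1 to 30.5 CPM) and Ptcra, the pre-T cell receptor alpha chain (9.96 to 22.8 CPM). In tumor cells of controls the B cell gate genes (Cd79a, Cd79b and Ms4a1) summed to 0.726 and 1.37 CPM and the 6 T cell gate genes to 1.56 and 0.211 CPM. In tumor cells of treated samples the B cell gate genes summed to 47.4 and 26.8 CPM. The T cell gate genes summed to 8.58 and 4.37 CPM there. Mesothelial genes, of the cells that line the peritoneum, summed to 7.50 to 10.6 CPM, with Msln (mesothelin) at 4.54 to 7.35, Bnc1 at 2.64 to 3.88 and Lrrn4 at 0.211 to 0.825 CPM. Fibroblast and endothelial genes summed to 0.528 to 2.89 CPM, led by Pecam1 (0.104 to 1.47), Pdgfra (0.311 to 0.990) and Col5a1 (0.106 to 0.495 CPM).

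No tested gene among the 10 passed the test between SP11 and control. In Krt18-gated tumor cells 0 of the 9 tested genes were called (edgeR, Benjamini-Hochberg adjusted p under 0.05), against 1.98% of 11584 genes tested, and Cdh1 was too low to be tested. The same held in the member-free gate, with 0 of 9 against 2.97% of 11673 genes. At an unadjusted edgeR p under 0.05 the count was also 0 in both gates, against 1656 of 11584 and 1810 of 11673 genes. DESeq2 called 0 as well, against 136 and 143 of the same genes. The median log2 change of the 9 genes was -0.12 in the first gate and -0.13 in the second, where that of all tested genes was -0.0034 and -0.0064.

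In the member-free gate the log2 change for Krt18 was -0.23 (SE 0.22, edgeR adjusted p = 0.662), for Krt8 -0.13 (SE 0.23, edgeR adjusted p = 0.832) and for Krt7 -0.18 (SE 0.19, edgeR adjusted p = 0.690). Epcam had the smallest p, with a log2 change of -0.24 (SE 0.14, edgeR adjusted p = 0.415). Sfn was the 1 gene with a value above 0, at 0.05 (SE 0.15). The groups overlapped for all 10 genes in CPM. For each keratin the 2 controls lay further apart than the means of the groups.

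Other RNA differed between SP11 and control in the cells of the tumor gates. The 4 haemoglobin genes of the erythroid list summed to 267 and 178 CPM in controls and to 10519 and 4735 CPM in treated samples. In the member-free gate, which holds no cell over the erythroid limit, the treated sums were 8651 and 4532 CPM. Haemoglobin RNA was not particular to tumor cells, as it was at 4392 to 9065 CPM in the B, T, myeloid and neutrophil gates of treated samples. In tumor cells the neutrophil gate genes summed to 36.8 and 80.3 CPM in controls against 151 and 162 CPM in treated samples. Of the haematopoietic list 8 of 13 tested genes were higher with SP11 (median log2 change 2.83), with the largest values for Cd79b (0 UMIs in controls, 10.7 and 8.33 CPM in treated samples), Ikzf1 (0 UMIs in controls, 2.12 and 1.40 CPM), Cd79a (log2 change 4.58, edgeR adjusted p = 1.44e-05), Cd2 (3.85, edgeR adjusted p = 0.00541) and Ptprc (3.8, edgeR adjusted p = 0.000217). In the member-free gate 10 of 13 were higher. That gate also held 26 cells of Treated 2 with 0 Krt18 UMIs, against 3 in each control. Those 26 cells held 39544 CPM of the B cell check markers, and their part in this count was not tested. Of the mesenchymal list Fn1 (fibronectin) and Zeb2 were higher, at log2 changes of 2.31 and 1.48 (edgeR adjusted p = 0.00406 and 0.00636), and of the 1 tested gene of the fibroblast and endothelial list, Pecam1 was higher. Of the other keratins (2 tested), tight junction (9), adherens junction and desmosome (14), epithelial regulator (18), cornified envelope (1) and mesothelial (2) lists, 0 genes were called. RNA of the haematopoietic and mesenchymal lists was not particular to tumor cells. The haematopoietic list summed to 15243 and 14952.5 CPM in the B cell gate of treated samples, against 177 and 120.2 CPM in their tumor cells. The mesenchymal list summed to 8253.5 and 9929 CPM in their myeloid gate, against 346 and 306 CPM in their tumor cells. Immune cells were also more numerous in treated samples. Whether RNA carried over from immune cells gave these values was not tested. The part of this other RNA in the small downward values of the 10 genes was not tested.

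Cells were also ordered by the cell cycle, which used none of the 10 genes. S and G2/M scores on the thinned cells placed 73.3% to 83.4% of them in G2/M, 9.51% to 16.03% in G1 and 6.77% to 10.6% in S. These are calls from scores and not a measure of how many cells were cycling. Counts were summed per library and phase and tested with the library as a block.

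In G2/M cells 7 of the 9 tested genes were lower than in G1 cells, against 7.49% of 10206 genes that were lower. This share is over tested genes of any level, and none was taken among genes as abundant as these. The median log2 change of the 9 genes was -0.37, and that of all tested genes -0.02. Krt8 was at 2043 and 1020 CPM in G1 cells of controls and 1642 and 1715 CPM in those of treated samples, and at 1637 and 776, and 1204 and 1184 CPM in G2/M cells. It was lower in G2/M in 4 of 4 libraries, with a log2 change of -0.46 (SE 0.03, edgeR adjusted p = 1.31e-20).

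Krt18 was at 3465, 1886, 3080 and 2569 CPM in G1 and 2974, 1602, 2349 and 1849 CPM in G2/M, a log2 change of -0.37 (SE 0.03, edgeR adjusted p = 2.83e-17). Krt19 changed by -0.42 (SE 0.04) and Krt7 by -0.31 (SE 0.03), both lower in 4 of 4 libraries. Outside the keratins Sfn changed by -0.54 (SE 0.05), from 306 to 398 CPM in G1 to 215 to 289 CPM in G2/M, without overlap of the phases. Sfn binds cell cycle proteins and is known as a G2/M checkpoint gene. Cnfn changed by -0.34 (SE 0.04), with a fall of 2.91% in Control 2 and of 29.8% in Treated 2 as the smallest and largest.

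Cldn4 was lower too (log2 change -1.27, SE 0.41, edgeR adjusted p = 0.0263), from few UMIs. Without Control 1 its edgeR adjusted p was 0.148, without Treated 1 it was 0.0515, without Treated 2 it was 0.117, and DESeq2 gave 0.124. Epcam (log2 change -0.01, SE 0.06, edgeR adjusted p = 0.983) and Wfdc2 (-0.02, SE 0.03, edgeR adjusted p = 0.751) did not pass, and each was lower in 2 of 4 libraries.

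**Figure D4:**
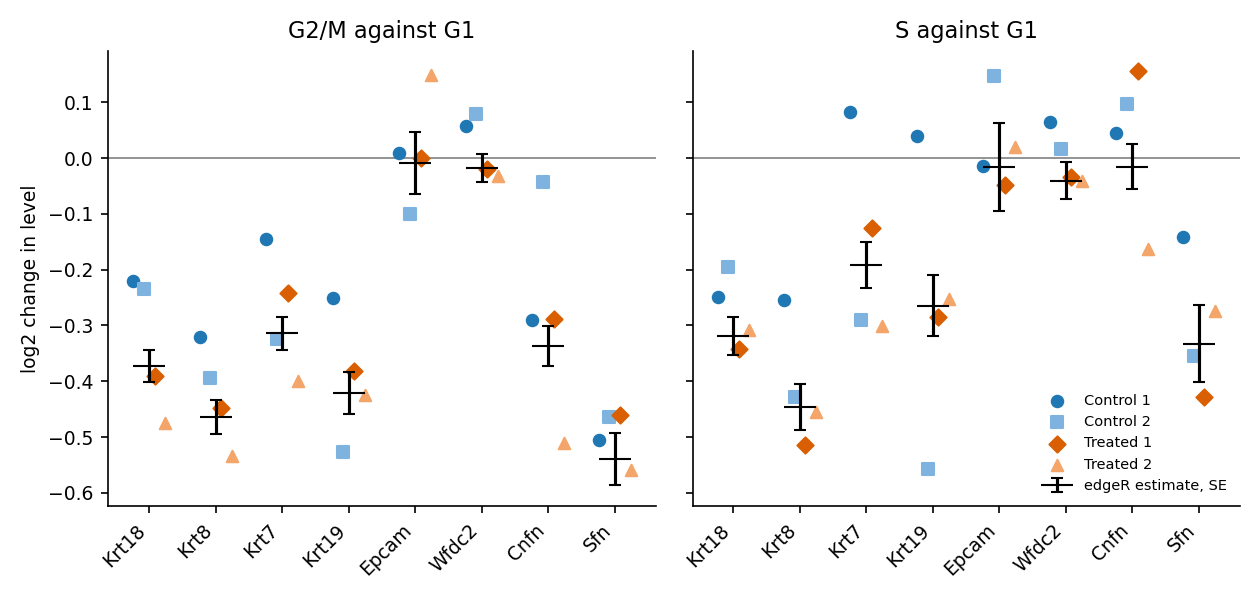
Log2 change of 8 of the 10 genes in G2/M cells (left) and S cells (right) against G1 cells, with 1 point per library from CPM and the edgeR estimate with its standard error in black, which is scaled by TMM and so can lie off the points. Points of the 4 keratins and Sfn lie below 0 in G2/M, and those of Epcam and Wfdc2 lie on both sides of 0.

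In S cells 5 of the 8 tested genes were lower than in G1 cells, against 3.74% of 6341 genes. This share too is over tested genes of any level. Krt8 changed by -0.45 (SE 0.04, edgeR adjusted p = 5.56e-16) and Krt18 by -0.32 (SE 0.03, edgeR adjusted p = 6.28e-13), both lower in 4 of 4 libraries. Sfn changed by -0.33 (SE 0.07). Krt19 (-0.26, SE 0.05) and Krt7 (-0.19, SE 0.04) were lower in 3 of 4 libraries and by CPM slightly higher in Control 1. DESeq2 called Krt8, Krt18 and Sfn only. Krt7 lost its call without Treated 2 (edgeR adjusted p = 0.0548). Epcam, Wfdc2 and Cnfn did not pass, with log2 changes of -0.02, -0.04 and -0.02.

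Depth and immune RNA differed between the phases. Median UMIs per cell were 7521 to 17035 in G1 cells and 9592 to 20980.0 in G2/M cells. Of the check markers, 3 of 5 tested B cell genes and 4 of 6 tested myeloid genes were lower in G2/M than in G1. Their part in the result was not tested. Among the other lists in G2/M, 0 of 7 tested tight junction genes were called, Afdn was lower (log2 change -0.29) and Pkp4, a plakophilin, was higher (0.74) among 13 tested adherens and desmosome genes, and Cd9 was lower (-0.23) among 16 tested epithelial regulators. Of the 8 tested mesenchymal genes Zeb2 (-0.94) and Sparc (-0.29) were lower, and of the 9 tested haematopoietic genes Cd52 (-1.18), Laptm5 (-1.16), Coro1a (-0.60) and Cd37 (-0.47). In S cells the genes called on these lists were all lower, namely Afdn, Cd9, Fn1, Zeb2, Vim, Cd52 and Coro1a, with log2 changes of -1.33 (Fn1) to -0.31 (Afdn).

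Whether the phase change differed between SP11 and control was tested as an interaction, chosen after seeing the data. In G2/M 0 of 9 genes were called, against 0.0588% of 10206 genes. The change of Krt18 was more negative with SP11 by a log2 value of -0.20 (SE 0.05, unadjusted p = 0.000454, edgeR adjusted p = 0.309), and its fall was 14.2% in Control 1 as the smallest and 28.0% in Treated 2 as the largest. In S 0 of 8 were called, against 0.0789% of 6341 genes.

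From cell to cell the keratins varied together. Pearson's r was taken over the thinned cells of each library on log-scaled UMIs and is a description, since cells of a library share depth and handling. For Krt8 with Krt18 it was 0.487 and 0.371 in controls (798 and 515 cells) and 0.549 and 0.551 in treated samples (1137 and 574 cells). It was lowest in Control 2, the library with the lowest keratin levels. The mean over libraries was 0.346 for Krt7 with Krt18, 0.310 for Krt7 with Krt8, 0.274 for Krt8 with Krt19, 0.263 for Krt18 with Krt19 and 0.240 for Krt7 with Krt19.

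With Krt7, Wfdc2 and Cnfn had a mean r of 0.216 and 0.220. Wfdc2 with Krt18 was at 0.171, and at 2000 UMIs per cell this pair was above the pair with Krt7 (0.210 against 0.186). By contrast Cnfn with Krt8 was at 0.00388. Sfn was at 0.151 with Krt18 and 0.0716 with Krt7. Epcam had a mean r between -0.0381 and 0.0859 with the other 7 abundant genes, highest with Krt8. Its r was above 0 in 4 of 4 libraries with Krt8, Krt18 and Wfdc2. Epcam and Sfn had few UMIs per thinned cell, with means of 0.986 to 1.15 and 1.16 to 1.53. How far such counts lower r was not tested, and a weak r in them is not a finding. Cdh1 and Cldn4 were too sparse for r.

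**Figure D5:**
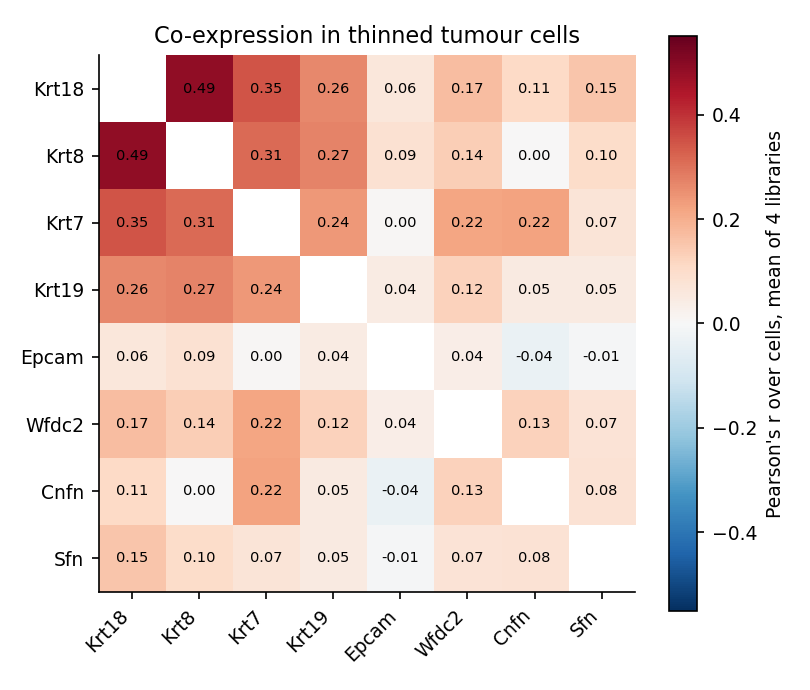
Pearson's r between 8 of the 10 genes over tumor cells thinned to 5000 UMIs, as the mean of the 4 libraries. The square of the 4 keratins holds values of 0.24 to 0.49, and the row of Epcam stays between -0.04 and 0.09.

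The spread of the keratins between cells was wider than counting gives. For thinned cells the variance over the mean, which is near 1 for counting alone, was 2.51 to 3.95 for Krt18, 2.15 to 2.86 for Krt8, 1.81 to 2.70 for Krt7 and 1.35 to 1.55 for Krt19. Cnfn had the widest, 3.52 to 4.27, with up to 65 UMIs in a thinned cell at a median of 4 to 6. Wfdc2, at a higher mean, was at 1.76 to 2.17, and Epcam at 1.16 to 1.46.

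By likeness to Krt8, Krt18 ranked 1, Krt7 2 and Krt19 3 of 4065 genes found in at least 10% of the cells of every library. Wfdc2 ranked 10, Sfn 25, Epcam 39 and Cnfn 1752. The 10 other genes most like Krt8 were Nlrp4e (mean r 0.223), the glucose transporter Slc2a3 (0.157), the galectins Lgals1 (0.147) and Lgals3 (0.144), Tspo (0.144), the lamin gene Lmna (0.139), Actb (0.130), Gnai2 (0.123), Serpinb6a (0.119) and Ly6a (0.119). The median over the 4065 genes was -0.000783 and the 95th percentile 0.0474. The lowest values, down to -0.182, were those of Hmgb2 and histone genes, which are expressed in dividing cells.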

How the data were processed

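The 4 libraries are Control and SP11 samples, 2 each, grouped by their labels. Per the file headers, the deposited values are raw counts of UMIs, which the authors made with Cell Ranger 7.1.0 and did not normalize. The submitters' notes name mm10. Totals of 9646197 to 13632163 UMIs per library set the precision, and 3 counts are the floor. The 10 genes, the gene lists and the tests were chosen with earlier results of these data known.

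Cells with 200 genes and at most 10% mitochondrial UMIs were kept, gated as described above, and cells with an erythroid share of 10% or more were left out of the member-free gate, while 28 of them stayed in the Krt18 gate. Doublets (Scrublet) were kept. Counts were summed per library and tested with edgeR 4.0.16 in R 4.3.3 (TMM, filterByExpr, quasi-likelihood test, Benjamini-Hochberg), between groups or between phases with the library as a block. The fit was also run on simulated counts with the same dispersion for every gene, which does not show its power for the 10 genes. Cells were thinned to 5000 UMIs for shares, phases and r (scanpy 1.11.5, scipy 1.17.1, Python 3.11.15). Alternatives were DESeq2 1.42.0, other filters, scalings, gates, thinning, doublet removal, a replicate block and each library left out. After seeing the data, shared barcodes and cells over immune limits were also removed, and the interaction was added. All 10 genes, the 10 others most like Krt8, the 3 highest of each list and its called genes (at most 5 each way) are named, and Krt5, Krt14, Cldn3, Cldn7, Ocln, Cdh2, Cdh3, Esrp1, Ptprc and Cd79b were added after their values were seen. Per list, counts of called genes are given for all lists with a tested gene.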

Additional observations from a re-analysis of the deposited data

How the results depend on the processing

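No alternative gave a call of the 10 genes between SP11 and control in either gate, and the smallest edgeR or DESeq2 adjusted p of any gene among them was 0.109 over 17 settings in the Krt18 gate and 0.0884 over 15 in the member-free gate, both for Cnfn without Treated 1. The counts over all genes were less steady. In the Krt18 gate the main count of 229 genes became 136 with DESeq2, 477 with library size only, 95 with thinned cells and 594 with Krt18 at 1 UMI. In the member-free gate 347 became 143 with DESeq2, 613 without the filter on low counts, 627 with library size only, 54 with thinned cells and 202 without shared barcodes. Library size only moved the median log2 change of all genes to 0.12 and 0.13, and the calls to 419 higher and 58 lower, from 175 and 54, in the first gate. Leaving out 1 library gave 286 to 436 genes in the Krt18 gate, where the count was 436 without Control 1 and 392 without Treated 2, and 0 of the 10 genes each time. With a replicate block the counts were 898 and 1067 genes, and again 0 of the 10. Nothing in the labels says that a number ties libraries together, and deviations of libraries with the same number correlated at 0.096 in the Krt18 gate and 0.102 in the member-free gate.

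For G2/M against G1, DESeq2 called 770 genes in place of 1538, and the cause was not tested. For S against G1 it called 209 in place of 571, and 3 of the tested keratin and epithelial genes in place of 5. In the main setting the share of cells with a UMI did not overlap between groups for 1 of the keratin and epithelial genes, Wfdc2. The count was 0 without thinning and 3 at 2 or more UMIs (Epcam, Wfdc2 and Sfn). The share over all genes, 44.3% of 10210, was taken for the main setting only. These other counts thus had no background, and their change is not a finding. The mean r over the 6 keratin pairs was 0.321, and 0.214 with cells thinned to 2000 UMIs and 0.410 in G1 cells alone. The immune level, 12.2% of the tumor level as a mean, stayed within 1 SD of 4.10 under its alternatives, though the Krt18 UMIs of B cells in Treated 1 went from 33 to 61 without the limit on Krt18.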
